A study of Mus musculus with 8 samples.

Results

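Genes of fibro-adipogenic progenitors and of tendon cells were examined in the soleus, a postural calf muscle, of Megf10 KO and wild type (WT) mice. The members were 38 genes chosen by their symbols, with earlier results of these data known, and rows for all 38 were found among the 16382 named genes of the data. RNA was measured by bulk RNA-seq after poly(A) selection in 4 KO and 4 WT muscles of female mice 7 months old, and a replicate was a single mouse. KO mice (genotype Megf10 -/-) carried the Megf10tm1b(KOMP)Jr allele on both chromosomes, which lacks exon 4. This loss is constitutive, so all cells of the animal carry it and no cell type can be singled out as its site. No treatment was given to either group, and the strain of the WT mice is not given in the sources used here.

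Fibro-adipogenic progenitors are the resident mesenchymal cells of skeletal muscle. They lie between the fibers, carry the PDGF receptor alpha, build much of the interstitial matrix and can turn into fibroblasts or fat cells. Tendon cells continue this connective tissue at the muscle ends, under the transcription factor scleraxis (Scx), and lay down a matrix of collagen, proteoglycans and elastic fibers. Elastic fibers have a core of elastin (Eln) on a sheath of fibrillin microfibrils, to which microfibril-associated proteins and fibulins bind. The members were ordered by these roles as surface and enzyme markers, transcription factors, secreted proteins, elastic fiber and fibronectin genes, and tendon genes.

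Megf10 itself had 1.12 to 11.1 normalized counts in KO and 57.1 to 70.0 in WT, low in every KO library. Values are gene counts that the authors scaled with DESeq2, so they compare libraries for 1 gene and not genes with each other. Where 4 values are given for a genotype, they follow replicates 1 to 4. Depth, recovered from the spacing of low values, was 37.8 M reads in KO replicate 1, 26.0 to 26.4 M in the other 3 KO libraries and 36.8 to 41.5 M in WT. Of the 4 KO libraries, 3 were thus shallower than every WT library. These depths are inferred, while the study's methods state the same sequencing depth for every sample. All 38 members were above 0 in every library and all were tested, since the filter on low values removed no gene.

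Of the 38 members, 10 rose in KO soleus, 0 fell and 28 did not pass (limma on log2(normalized count + 1), Benjamini-Hochberg adjusted p under 0.05 over all genes). That is 26.3% of the members, where 5.16% of all genes were called higher and 3.79% lower (8.95% in either direction). Of these 10 calls, 0 held with library depth as a covariate and 4 held without KO replicates 2 and 3, which are among the shallower libraries. The genes that rose encode matrix and secreted proteins for the most part. They were the elastic fiber genes Eln, Mfap4 and Mfap5, fibronectin (Fn1), Dpt, Pcolce, Serpinf1 and Gsn from the secreted protein list, and Cilp and Tppp3 from the tendon list. None of the 7 surface and enzyme markers and none of the 4 transcription factors passed. At the share of all genes called, lists this short may well hold 0 calls. The median log2 fold change was 0.39 over the members and -0.01 over all genes, and 33 of 38 members (86.8%) lay above 0, against 49.0% of all genes. At an unadjusted p under 0.05 in limma, 20 of 38 members were higher and 0 lower. Of all 16382 genes, 2184 were higher and 1995 lower at that level. RNA of whole muscle was measured, so more cells of a type and more RNA per cell cannot be told apart.

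**Figure D1:**
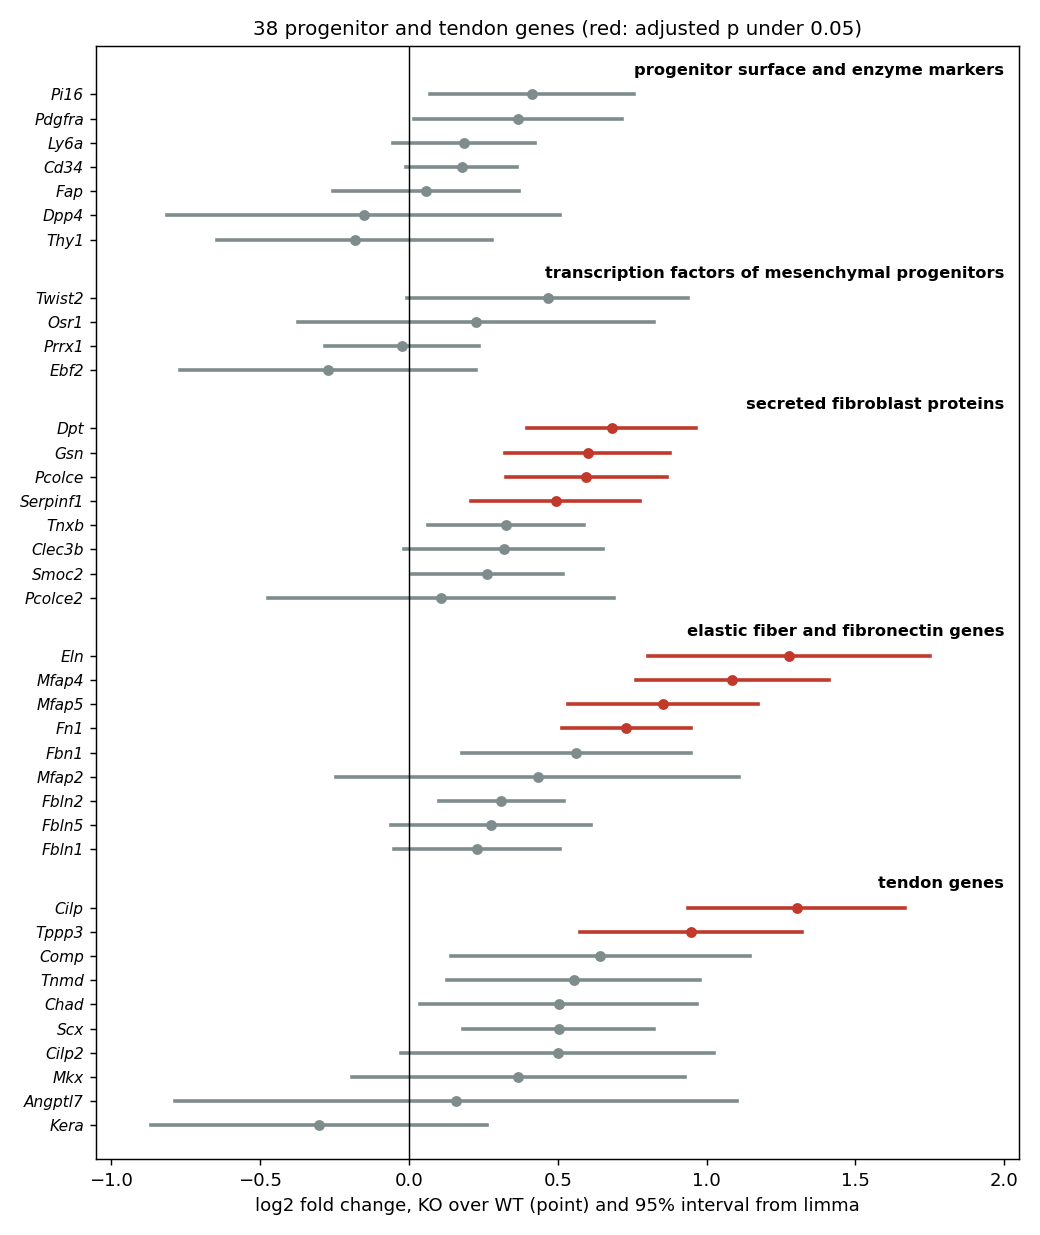
Log2 fold change of KO over WT (x axis, point, with the 95% interval from limma as a line) for each of the 38 members (y axis), grouped by role, with members that passed in red. The red points are confined to the secreted, the elastic fiber and fibronectin, and the tendon groups, while the surface markers and the transcription factors lie between -0.27 and 0.47.

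The sequences just before the transcription start are shown for 4 of the genes that rose, marked for E-boxes, the sites that basic helix-loop-helix factors bind (CANNTG, which reads the same on both strands). They come from RefSeq on build GRCm38.p6, while the authors' values rest on GRCm39. A window was found for 23 of the 38 members and for 5 of the 10 that rose, and the 4 shown are those with a single start. Each is the stretch of 250 bases before the start, 5′ to 3′ on the gene's strand, with E-boxes in capitals. The windows lie at chr1:164796413-164796662 on the plus strand (Dpt), chr5:137611405-137611654 on the minus strand (Pcolce), chr11:75422624-75422873 on the minus strand (Serpinf1) and chr9:65264930-65265179 on the plus strand (Cilp).
Dpt: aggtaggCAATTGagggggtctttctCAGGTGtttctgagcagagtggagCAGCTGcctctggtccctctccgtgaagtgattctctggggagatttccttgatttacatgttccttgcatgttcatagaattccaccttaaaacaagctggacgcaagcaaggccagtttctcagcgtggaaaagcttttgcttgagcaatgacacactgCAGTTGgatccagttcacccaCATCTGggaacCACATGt
Pcolce: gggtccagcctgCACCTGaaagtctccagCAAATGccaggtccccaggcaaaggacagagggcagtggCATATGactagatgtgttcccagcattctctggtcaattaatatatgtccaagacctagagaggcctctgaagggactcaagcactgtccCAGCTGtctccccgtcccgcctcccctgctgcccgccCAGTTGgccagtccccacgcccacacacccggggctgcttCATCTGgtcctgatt
Serpinf1: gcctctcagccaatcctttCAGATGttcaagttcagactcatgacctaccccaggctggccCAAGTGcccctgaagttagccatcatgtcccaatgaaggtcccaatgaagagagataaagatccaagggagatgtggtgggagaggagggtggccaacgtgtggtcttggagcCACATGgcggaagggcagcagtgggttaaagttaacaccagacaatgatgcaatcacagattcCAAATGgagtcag
Cilp: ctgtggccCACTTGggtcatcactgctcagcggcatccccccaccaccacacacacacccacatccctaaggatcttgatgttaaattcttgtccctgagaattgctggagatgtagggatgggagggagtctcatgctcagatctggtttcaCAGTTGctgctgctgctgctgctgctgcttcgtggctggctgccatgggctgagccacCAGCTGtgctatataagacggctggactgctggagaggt
Dpt and Pcolce each held 6 E-boxes in this stretch, Serpinf1 held 4 and Cilp 3. Of all 32851 windows of the same length, 66.2% held at least 1, 12.2% at least 3, 3.84% at least 4 and 0.274% at least 6. The fifth gene, Gsn, had 3 starts with 1 or 2 E-boxes. Among members that did not pass, the windows held 0 to 3, with 3 in Angptl7 and 1 in Pdgfra, Chad, Cilp2, Dpp4, Fbln2, Pcolce2 and Tnxb. Windows of Cd34, Pi16, Prrx1, Fbn1, Tnmd, Kera and Twist2 held 0. Fbln1 had starts with 1 and 2, and Fbln5 and Mfap2 had starts with 0 and 1. Whether genes that rose differ from the others in E-boxes was not tested. A match is a run of letters and no record of binding, which was not measured.

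The markers by which fibro-adipogenic progenitors are recognised and sorted did not pass. Of 7 surface and enzyme markers, 0 were called in either direction. Of all genes 8.95% were called, a share at which a list of 7 may well hold 0. In limma, 2 (Pdgfra and Pi16) were higher and 0 lower at an unadjusted p under 0.05. Of all 16382 genes, 2184 were higher and 1995 lower at that level. The median log2 fold change of the 7 was 0.18, against -0.01 over all genes. Pdgfra encodes the PDGF receptor alpha, the defining marker of these cells. It had 645, 833, 864 and 1146 normalized counts across KO replicates 1 to 4, with 569, 698, 652 and 743 across the 4 WT libraries in the same order. KO replicates 2, 3 and 4 were above all of WT and KO replicate 1 lay within the WT range. The log2 fold change of Pdgfra was 0.37, with a 95% interval of 0.02 to 0.72 and an adjusted p of 0.174 from limma. With depth as a covariate it was -0.01, and with KO replicate 1 as the sole KO library -0.04.

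Ly6a, the surface antigen Sca-1, ran from 1521 to 2012 normalized counts in KO and from 1409 to 1696 in WT. Cd34, a sialomucin that endothelial cells carry as well, ran from 2289.8 to 2939 in KO and from 2069.8 to 2376 in WT. Both had a log2 fold change of 0.18, and neither passed (limma adjusted p = 0.318 and 0.221). Pi16 and Dpp4 mark a fibroblast population of the adventitia and fascia. Pi16 ran from 2074 to 3019 in KO and from 1402 to 2095 in WT, for a log2 fold change of 0.41 (limma adjusted p = 0.123). Dpp4, a membrane peptidase, had 241, 414, 123 and 201 across KO replicates 1 to 4 and 221 to 302 in WT. The highest and the lowest library for Dpp4 were thus both KO, and its interval ran from -0.81 to 0.51. Thy1, a surface glycoprotein of fibroblasts and nerve, had a log2 fold change of -0.18 (95% interval -0.64 to 0.28). Fap, a membrane protease of activated fibroblasts, had 0.06 (-0.26 to 0.37).

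**Figure D2:**
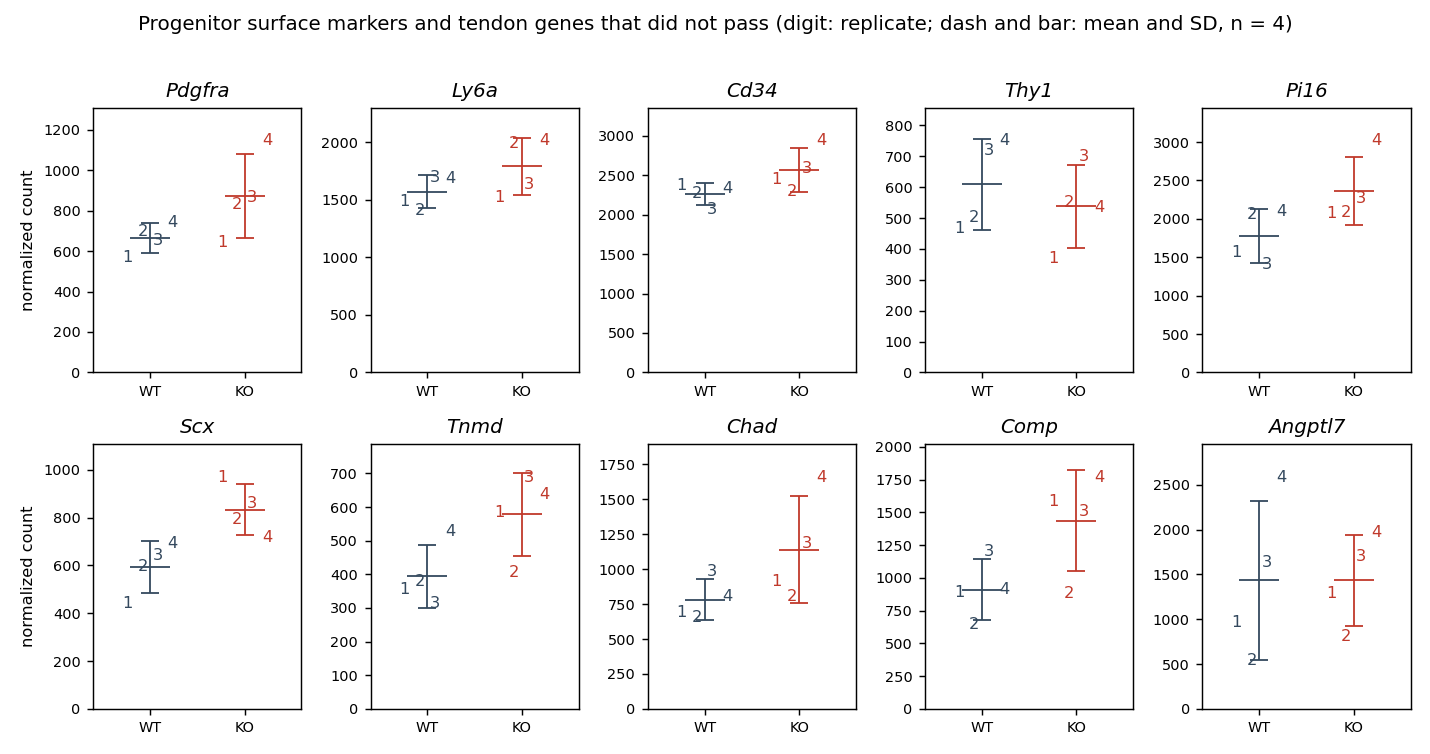
Normalized counts (y axis, from 0) in WT and KO for 5 progenitor markers and 5 tendon genes that did not pass, with each digit a replicate and the dash and bar the mean and SD (n = 4). KO replicate 4 is the highest library for Pdgfra, Ly6a, Cd34, Pi16, Chad and Comp, while for Scx every KO library lies above every WT library.

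The transcription factors of mesenchymal progenitors did not pass either. Of 4 factors, 0 were called, and 0 had an unadjusted p under 0.05 in limma. With 8.95% of all genes called, lists of 4 or 5 genes may well hold 0 calls. Osr1, which marks these progenitors in the developing limb, had 68.1 to 112 normalized counts in KO and 45.6 to 108 in WT. Twist2 had 47.5, 65.7, 62.1 and 66.9 across KO replicates 1 to 4 and 35.7 to 48.1 in WT, so that KO replicate 1 alone fell inside the WT range. Its log2 fold change of 0.47 was the highest of the 4 (limma adjusted p = 0.200). Prrx1, a homeobox factor of limb mesenchyme, varied less among KO libraries (3976 to 4333) than among WT libraries (3518 to 5059.5), with a log2 fold change of -0.02 (95% interval -0.28 to 0.24). Ebf2, a factor of adipocyte precursors, had -0.27 (-0.77 to 0.23). Of the growth factors that act on PDGF receptors and the second receptor, listed beside the members, 0 of 5 passed, with 1 higher and 1 lower at an unadjusted p under 0.05. Pdgfrb, the receptor of pericytes and fibroblasts, had a log2 fold change of -0.34 (limma adjusted p = 0.158). The ligand gene Pdgfb had 0.37 (adjusted p = 0.175).

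Among genes for secreted fibroblast proteins, 4 of 8 rose and 0 fell, with a median log2 fold change of 0.41. Dpt encodes dermatopontin, a small matrix protein that binds decorin and collagen. It had 1404, 1716, 1733 and 1982 normalized counts across KO replicates 1 to 4, with 1018, 1284, 882 and 1084 across the 4 WT libraries in the same order. Every KO library lay above every WT library, and the log2 fold change was 0.68 (limma adjusted p = 0.0104, SE 0.129). Pcolce encodes an enhancer of the protease that trims procollagen. Its values were 1325, 1242, 1444 and 1657 in KO and 899.7, 974, 775 and 1111 in WT, again without overlap. The log2 fold change of Pcolce was 0.60 (limma adjusted p = 0.0149, SE 0.122). Gsn encodes gelsolin, which severs actin filaments and has a secreted form. Gene counts do not tell the secreted form from the one inside cells. Gsn had 25773, 30432, 31210.2 and 38942 in KO against 21562, 23286, 17073 and 21062 in WT. KO replicate 1 stood closest to WT, and the log2 fold change was 0.60 (limma adjusted p = 0.0161, SE 0.125).

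Serpinf1 encodes pigment epithelium-derived factor, a secreted serpin that inhibits vessel growth. It had 1915, 1627, 2252 and 2324 normalized counts across KO replicates 1 to 4 and 1277, 1364, 1370.3 and 1739 in WT. The groups overlapped, as KO replicate 2 lay below WT replicate 4. Its log2 fold change of 0.49 passed by a narrow margin (limma adjusted p = 0.0395, SE 0.129). The call was lost in 6 of the 8 fits that leave out 1 library, those that drop KO replicate 1, 3 or 4 or else WT replicate 1, 2 or 3, with an adjusted p of up to 0.112. Pcolce and Gsn lost their calls when KO replicate 3 was left out (limma adjusted p = 0.0507 for both), while Dpt passed in all 8 of these fits. Without a variance trend, Serpinf1, Pcolce and Gsn did not pass (limma adjusted p = 0.104, 0.0557 and 0.0669).

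The 4 secreted proteins whose genes did not pass were higher in KO on average as well. Tnxb, the gene of the tenascin X that spaces collagen fibrils, had a log2 fold change of 0.33 (limma adjusted p = 0.113). Clec3b, which encodes the plasminogen-binding tetranectin, had 0.32 (adjusted p = 0.216), and Smoc2, a calcium-binding matrix protein gene, had 0.26 (adjusted p = 0.180). Pcolce2, a relative of Pcolce, had 0.11 with a wide interval of -0.48 to 0.69. All 8 genes of this group were highest in KO replicate 4, which is the highest library for 13.7% of all genes and for 21 of 38 members (55.3%). Of the 8, 6 were lowest in WT replicate 3, the lowest library for 13.6% of all genes.

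Elastic fiber genes rose in part. Of the 9 genes for elastic fibers and fibronectin, 4 rose, 0 fell and 5 did not pass, all 9 had a log2 fold change above 0, and the median was 0.56. Eln, the gene of elastin itself, had 2009.9, 2965, 4248 and 4142 normalized counts across KO replicates 1 to 4. In WT it had 1073, 1361, 1353 and 1539.7. The mean was 3341 ± 1061 (SD, n = 4) in KO against 1332 ± 193 (SD, n = 4) in WT, and the log2 fold change was 1.28 (limma adjusted p = 0.00601, SE 0.214). KO replicates 3 and 4 were about level, KO replicate 2 lay between, and KO replicate 1 was the KO library nearest to WT.

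Mfap4 and Mfap5 encode microfibril-associated proteins, of which Mfap4 binds elastin and fibrillin and Mfap5 binds fibrillin. Mfap4 had 670.1, 655, 910.3 and 827 normalized counts across KO replicates 1 to 4 and 307, 425, 311 and 397 in WT. The lowest KO library was well above the highest WT library, with a log2 fold change of 1.09 (limma adjusted p = 0.00259, SE 0.147). Mfap5 had 1334, 1161, 1717 and 1725 in KO and 714, 795, 764 and 987 in WT. These values did not overlap, and the log2 fold change was 0.85 (limma adjusted p = 0.00609, SE 0.144). Mfap2, which encodes a relative of the Mfap5 protein, was counted far less often, at 45.2 to 87.6 in KO and 27.3 to 58.6 in WT. It did not pass (log2 fold change 0.43, 95% interval -0.25 to 1.11).

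Fn1 encodes fibronectin, on which collagen and fibrillin are assembled. It had 7678, 7017, 7302 and 7336 normalized counts across KO replicates 1 to 4 and 4997, 4228, 3625 and 4968 in WT. The KO libraries lay close together, with an SD of 271 around 7333, and far from the WT mean of 4454 ± 658 (SD, n = 4). Unlike Eln, Fn1 was highest in KO replicate 1, and its log2 fold change was 0.73 (limma adjusted p = 0.00246, SE 0.0975).

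Fibrillin-1 (Fbn1), the core of the microfibril, had 2578, 2788, 3432 and 4321 normalized counts across KO replicates 1 to 4 and 1783 to 2591 in WT. KO replicate 1 fell just within the WT range, and the log2 fold change of 0.56 did not pass (limma adjusted p = 0.0711). It passed without KO replicate 1 (limma adjusted p = 0.0499) and under either scaling to library size (0.0497 and 0.0480). These 2 scalings also raised the median log2 fold change of all genes, from -0.007 to 0.070 and 0.067. The fibulins link elastin to microfibrils and basement membranes. Fbln2 had a log2 fold change of 0.31 (limma adjusted p = 0.0697) and passed without KO replicate 2 (0.0232) and under either scaling (0.0304 and 0.0294), KO replicate 2 being the single KO library below the highest WT library. Fbln5, which elastic fiber assembly needs, had 0.27, and Fbln1 had 0.23 (adjusted p = 0.292 and 0.288).

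**Figure D3:**
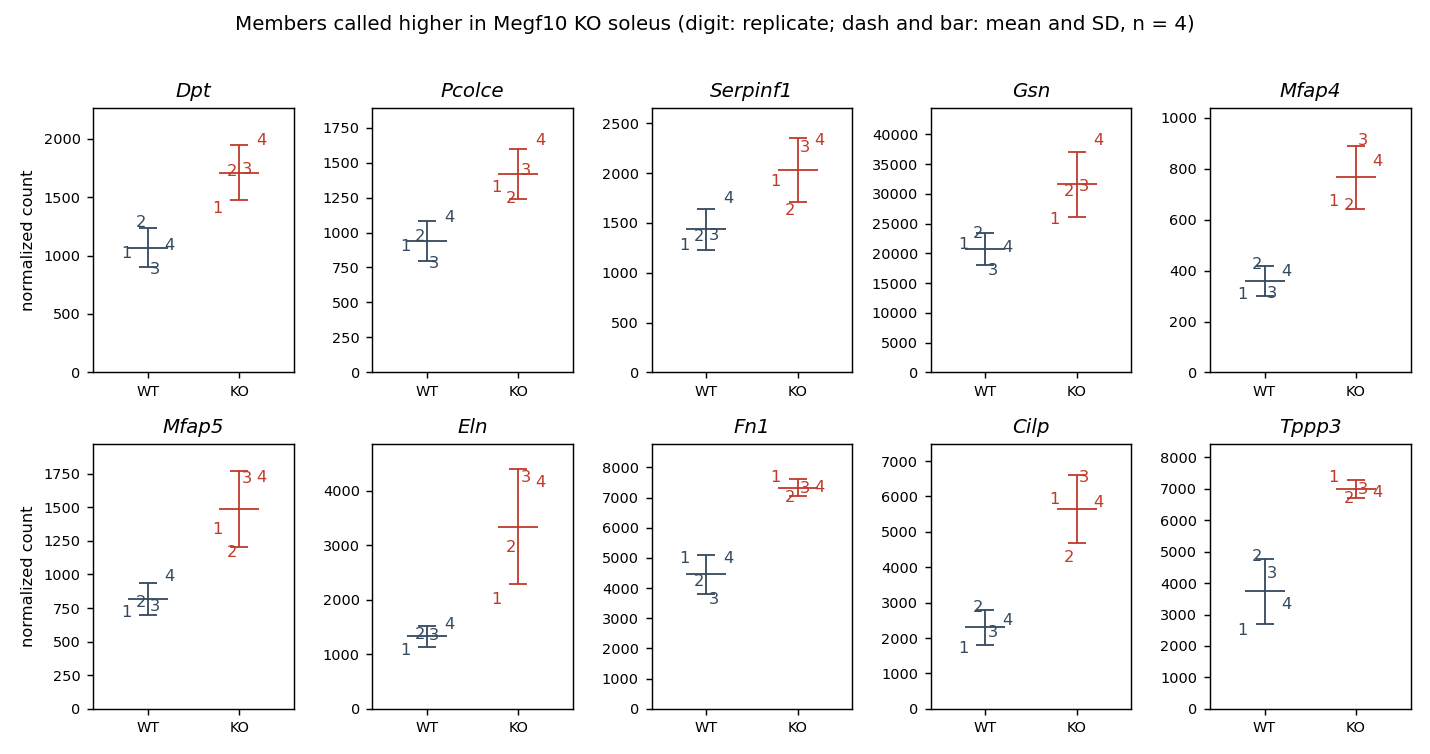
Normalized counts (y axis, from 0) in WT and KO for the 10 members that rose, with each digit a replicate and the dash and bar the mean and SD (n = 4). The genotypes overlap for Serpinf1 alone, and KO replicate 1 is the lowest KO library for Dpt, Gsn and Eln but the highest for Fn1 and Tppp3.

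Of 10 tendon genes, 2 rose, 0 fell and 8 did not pass, with a median log2 fold change of 0.50. Cilp encodes cartilage intermediate layer protein, a secreted matrix protein of cartilage and tendon. It had 5907, 4288, 6547 and 5822 normalized counts across KO replicates 1 to 4 and 1693, 2875, 2149.6 and 2493 in WT. The groups were far apart, and Cilp had the largest log2 fold change and the smallest adjusted p of the 38 members, 1.30 (limma adjusted p = 0.00199, SE 0.165). Tppp3 encodes a tubulin-binding protein that marks progenitor cells of the tendon sheath. It had 7372, 6692, 6992 and 6898 in KO and 2484, 4833, 4306 and 3331 in WT. As for Fn1, the 4 KO libraries were nearly level, with an SD of 285, while WT had an SD of 1043. The log2 fold change of Tppp3 was 0.95 (limma adjusted p = 0.00773, SE 0.169).

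The transcription factors and later markers of tendon did not pass. Scx had 969.9, 792, 858 and 716 normalized counts across KO replicates 1 to 4, with 441, 598, 642 and 690.1 across the 4 WT libraries in the same order. All KO libraries were above all WT libraries, but the gap between the nearest of them was small, and the log2 fold change of 0.50 missed the threshold (limma adjusted p = 0.0567, SE 0.145). Scx passed under either scaling to library size (limma adjusted p = 0.0269 and 0.0282), which raised the median log2 fold change of all genes as well. With Scx, 10 of 38 members had every KO library above every WT library (26.3%, against 8.63% of all genes), and 0 had every KO library below (8.54% of all genes). Mkx, a homeobox factor of tendon, was highest in WT replicate 1 (109) and lowest in the other 3 WT libraries (51.8 to 61.8), with KO between (76.8 to 106). Tnmd encodes tenomodulin, a membrane protein of mature tendon cells. It had 583, 405, 689 and 637 in KO and 356, 379, 313 and 528 in WT, for a log2 fold change of 0.55 (limma adjusted p = 0.101).

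KO replicate 2 was the lowest KO library for several of these genes. Comp, a thrombospondin that binds collagen, had 1583, 881, 1508 and 1769.6 normalized counts across KO replicates 1 to 4 and 887, 641, 1205 and 912 in WT. KO replicate 2 lay below 3 of the 4 WT libraries, and the log2 fold change was 0.64 (limma adjusted p = 0.105). Without KO replicate 2, Comp and Tnmd passed (limma adjusted p = 0.0233 and 0.0377), and Tnmd also passed without WT replicate 4 (0.0492). Chad, which encodes the leucine-rich repeat protein chondroadherin, had 911, 803, 1182 and 1659 in KO and 655 to 985 in WT (adjusted p = 0.164). Cilp2, the relative of Cilp, had a log2 fold change of 0.50 (limma adjusted p = 0.218). Kera, the gene of the proteoglycan keratocan, lay at 40.0 to 81.1 in KO and 61.3 to 96.9 in WT, for a log2 fold change of -0.30 (adjusted p = 0.501). Angptl7, a secreted angiopoietin-like protein gene, spread over 544 to 2585 within WT alone, and its interval of -0.79 to 1.10 allows a change in either direction.

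The libraries were not alike across roles. Taken as the median over a group of log2(normalized count + 1) minus the WT mean, the elastic fiber and fibronectin genes stood at 0.35, 0.52, 0.66 and 0.73 across KO replicates 1 to 4 and at -0.18 to 0.17 in WT. The secreted proteins stood at 0.24, 0.27, 0.44 and 0.70 in KO and at -0.24 to 0.08 in WT. For both groups the lowest KO library was KO replicate 1 and the highest KO replicate 4. The tendon genes stood at 0.46, 0.06, 0.64 and 0.82, with KO replicate 2 inside the WT range of -0.17 to 0.13. The surface markers stood at -0.04, 0.25, 0.19 and 0.36, with KO replicate 1 inside the WT range of -0.16 to 0.17. Over all 38 members the summed value was 87001 to 112569 in KO and 59599 to 70203 in WT. Much of it came from the 10 that rose (55388 to 71654 in KO, 32609 to 41423 in WT), which were called from these same values. The 28 that did not pass summed to 30997 to 40915 in KO and 26989 to 30896 in WT.

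**Figure D4:**
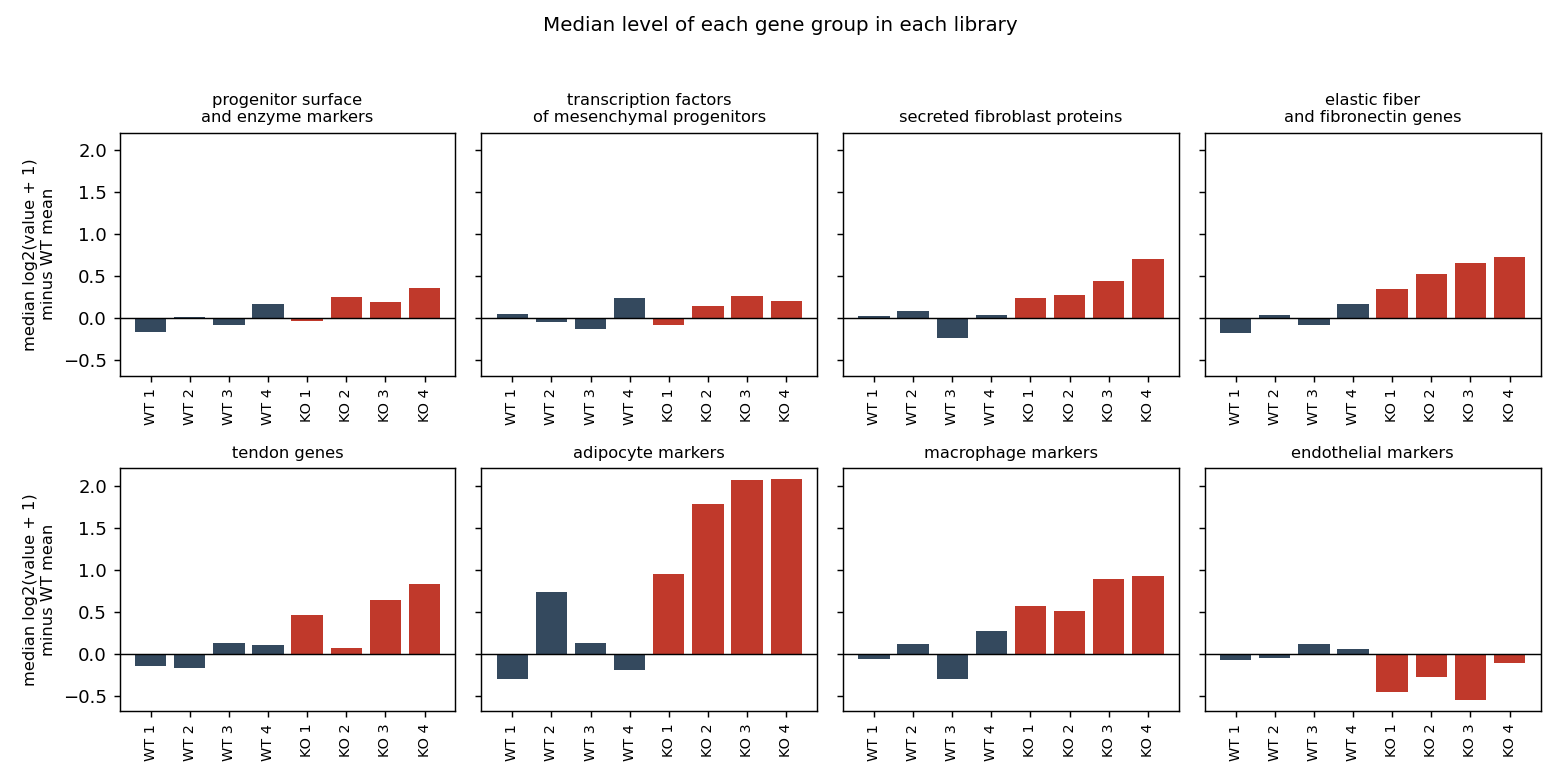
Median of log2(normalized count + 1) minus the WT mean (y axis) over the 5 groups of members and 3 marker lists of other cells, for each of the 8 libraries (x axis, WT dark, KO red). Adipocyte markers stand at 0.94 in KO replicate 1 and between 1.79 and 2.07 in the other KO libraries, and the tendon genes are low in KO replicate 2.

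The depth of the libraries moved with genotype, and its part in these results was not tested beyond the following values. KO replicate 1, which was as deep as the WT libraries, lay above all 4 of them for 17 of 38 members (44.7%) and for 25.0% of all genes. The 17 include each of the 10 members that rose, but these were called with KO replicate 1 among their values, so this was partly set by the call. Of the 28 members that did not pass, it lay above all WT libraries for 7 (25%). With log2 depth as a covariate, 0 members passed in limma, while 9 were higher and 1 lower at an unadjusted p under 0.05. Of all 16382 genes, 2132 had such a p in either direction in that fit. The 10 genes that rose had log2 fold changes of 0.30 to 1.5 there, with limma adjusted p of 0.0621 to 0.520. Their median SE was 0.229, against 0.136 without the covariate. Cilp (1.5), Tppp3 (1.23), Mfap4 (0.95) and Fn1 (0.70) had the smallest adjusted p there, while Dpt (0.43), Gsn (0.30) and Eln (0.65) had estimates lower by more than 1.5 times. With KO replicate 1 as the sole KO library, assumed to vary like WT, again 0 passed, with log2 fold changes of 0.32 to 1.39. Without KO replicates 2 and 3 together, 4 members passed (Mfap4, Mfap5, Fn1 and Cilp), while 164 genes were called in all. The 6 others had log2 fold changes there of 0.66 (Dpt), 0.67 (Pcolce), 0.56 (Serpinf1), 0.62 (Gsn), 1.13 (Eln) and 0.98 (Tppp3), against 0.68, 0.60, 0.49, 0.60, 1.28 and 0.95 over all libraries.

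Other genes of the same tissues, listed beside the members, rose in part as well. Of 20 other fibroblast genes, 7 rose and 0 fell, with a median log2 fold change of 0.38. Mmp2, a protease that cleaves gelatin and basement membrane collagen, rose by 0.53 on the log2 scale and the collagen gene Col3a1 by 1.12 (limma adjusted p = 0.00156 and 0.00204). Of 18 other tendon genes 17 were tested, and 5 rose and 0 fell. Col12a1, a fibril-associated collagen gene, rose by 1.20 and Tnc, the gene of tenascin C, by 1.15 (adjusted p = 0.00348 and 0.0112). Of 15 other elastic fiber genes, 4 rose and 0 fell. Among them were Loxl2, which crosslinks collagen and elastin (0.90, adjusted p = 0.00609 from limma), and Ltbp2, a fibrillin-like binding protein gene (1.35, adjusted p = 0.00948). At an unadjusted p under 0.05 in limma, 11 of these fibroblast, 9 of the tendon and 7 of the elastic fiber genes were higher. Lower at that level were 0, 1 (Wif1, log2 fold change -1.18) and 1 (Fbn2, -1.02).

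Markers of fat cells and macrophages moved with the members, and their part in the result was not tested. Of 8 adipocyte markers 7 rose, with a median log2 fold change of 1.75 over the 8. The summed value of the 8 was 13144 to 22967 in KO and 8620 to 11195 in WT. Much of this sum is Fabp4 (7392 to 9721 in KO, 7065 to 8650 in WT), the marker that did not pass (limma adjusted p = 0.213). Of 8 macrophage markers 5 rose, with sums of 4598 to 5993 in KO and 2654 to 3614 in WT. With 1 library left out, 5 to 7 adipocyte and 2 to 5 macrophage markers were called, without KO replicates 2 and 3 together 0 and 1 were, and with depth as a covariate 0 of either. Of 8 endothelial markers 2 fell, with sums of 8919 to 11868 in KO and 12066 to 13938 in WT. Neither was called under scaling to the whole library size, without a variance trend, or when KO replicate 1, 2 or 3 was left out, or else WT replicate 3 or 4 (0 to 3 calls over the fits that leave out 1 library). Of 8 mural cell markers 3 fell (Rgs5, Kcnj8 and Abcc9) and 0 rose. The sums overlapped, at 156594 to 216126 in KO and 168467 to 180996 in WT. They consist mostly of Des (136265 to 198171 in KO, 143440 to 157383 in WT) and so say little of the other mural markers. With 1 library left out 2 to 3 were called, and 0 were without KO replicates 2 and 3 together or with depth as a covariate. Of 8 Schwann cell markers 1 fell (sums of 3155 to 3877 in KO and 3221 to 4263 in WT), a call lost under either scaling to library size and when KO replicate 1 or 3 was left out, or else WT replicate 2 or 3. Of 8 muscle fiber markers 2 fell, Ckm and Myh2 (sums of 2756590 to 2922270 in KO and 2925700 to 3237440 in WT). Myh2 had a mean of 250796 in KO and 461238 in WT. Of the 8, 4 had a log2 fold change above 0, Myh7 and Tnnc1 among them (0.23 and 0.28). Whether the lower sums reflect fiber content or fiber type was not tested. Calls in this list numbered 1 without a variance trend, 1 to 3 with any 1 library dropped, and 4 under either scaling to library size. With depth in the fit there were 0. The fit lacking KO replicates 2 and 3 gave 1. No gene of these 6 lists was at 0 in any library. Of 8 cartilage and bone markers, 3 were in the data and 0 passed (2 were higher at an unadjusted p under 0.05). Their sums were 17.1 to 72.2 in KO and 17.1 to 22.7 in WT, with Matn3 at 0 in KO replicate 2 and WT replicate 3 and Ibsp at 0 in WT replicate 2.

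**Figure D5:**
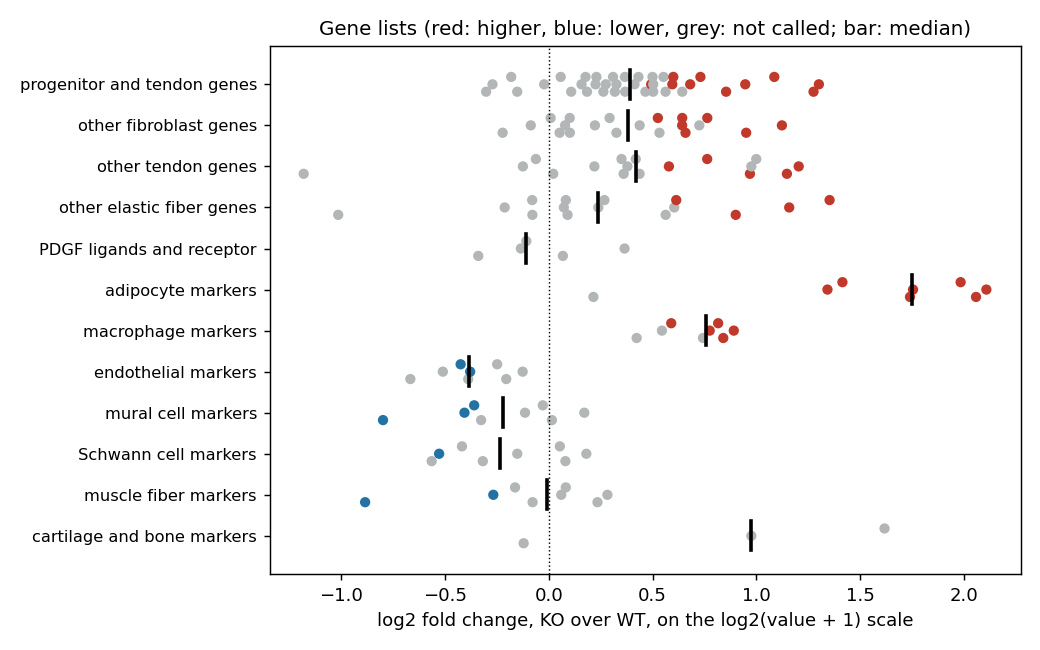
Log2 fold change of KO over WT (x axis) for each gene of the members and of the lists set beside them (y axis), with genes that rose in red, genes that fell in blue and a black bar at the median. The members' median of 0.39 lies near those of the other fibroblast and tendon genes (0.38 and 0.42), below that of the adipocyte markers (1.75) and above that of the endothelial markers (-0.38).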

How the data were processed

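Poly(A) RNA of whole soleus was sequenced from 4 KO and 4 WT mice. Per the labels and the study's methods, the authors trimmed reads with Trimmomatic, quantified transcripts with Salmon, used tximport to get gene values, removed counts of 5 or less, and applied DESeq2 normalization, on build GRCm39. The deposited signal is these normalized gene counts per library, which are not whole, so no count test was run. The authors' deposited table also holds their mean signal, with which the library means computed here agree to 6.8e-15 of the value, and columns of their own comparison (log2 fold change, its error, a test statistic and p-values), which were not used.

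Genes were tested on log2(value + 1) with limma 3.58.1 in R 4.3.3, with genotype as the sole term, a prior variance that follows expression, and Benjamini-Hochberg adjustment over 16382 genes. A line without a gene name (0.0112 to 0.0150% of a library) was left out. Normalized values summed to 32.3 to 33.1 M per KO library, WT libraries to 33.6 to 35.7 M. Of values up to 60, 17.7 to 37.3% were within 0.01 reads of a whole number, too few to recover counts. The scale understates fold changes of genes with low values.

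The members and all lists were chosen with earlier results of these data known, so no list was tested as a set and counts stand beside those of all genes. All 38 members are named, with up to 2 genes of smallest adjusted p from each list of related genes. Alternatives were other pseudocounts, filters, scalings and variance models, each library left out in turn, KO replicates 2 and 3 left out together, the replicate number as a block, and depth as a covariate. Leaving out KO replicates 2, 3 and 4 together was added after the values were seen. Windows before transcription starts came from RefSeq (GRCm38.p6) and were searched for E-boxes with Python 3.11.15.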

Additional observations from a re-analysis of the deposited data

Results flagged for a closer look

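Of 94 groups of 4 libraries (38 members and 9 further genes, in each genotype), 3 held a library far from the other 3, and chance alone gives about 1 in 20. Tnxb had 5017 normalized counts in KO replicate 4, where the other KO libraries had 3421 to 3657. Fbln5 had 758.4 in the same library, where the others had 543.6 to 567.7. Smoc2 had 1233 in WT replicate 3, where the other WT libraries had 1710 to 1779. None of the 3 genes passed between genotypes in limma.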

How the results depend on the processing

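The calls among the members were the same 10 under either other pseudocount (0.5 or 5), with genes of a mean under 10 removed, with no filter and with a robust variance. Each of these 10 genes kept its direction in all 20 alternatives. The count was 13 under both library size scalings (adding Scx, Fbn1 and Fbln2), 7 without a variance trend (losing Pcolce, Serpinf1 and Gsn), and 7 to 13 when 1 library was left out. It was 4 when KO replicates 2 and 3 were both left out, 0 with depth as a covariate, and 0 when KO replicates 2, 3 and 4 were left out. For these settings the 1466 calls over all genes became 819 without trend, 662 to 1231 with 1 library left out, 164, 58 and 15. The 36 calls in the lists set beside the members became 23 without trend, 21 to 34 with 1 library left out, 7, 0 and 0. The share of calls that were higher was 57.6%, but 79.9% with library size as the sole scaling (1279 higher, 321 lower) and 78.9% if that size excludes the 10 most abundant genes (1244 higher, 333 lower). The median log2 fold change of all genes was -0.007, and 0.070 and 0.067 under these 2 scalings.

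No pairing by replicate number was seen in the values. With each gene's genotype mean subtracted from its log2 values, same-numbered KO and WT libraries had correlations of -0.0675 to -0.0291 across 14789 genes. Pairs of unlike number had -0.0539 to 0.104. Such correlations cannot show whether same-numbered mice shared a litter or were processed together. With the replicate number as a block, 12 members were higher, the same 10 with Fbn1 and Comp, 0 were lower, and 1278 genes and 34 listed genes were called.

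Signs turned for members that did not pass: Prrx1 under library size scaling (0.0556, and 0.0525 if that size excludes the top genes), Ebf2 when KO replicates 2 and 3 were left out (0.0554), Pdgfra (-0.0133), Ly6a (-0.0576), Osr1 (-0.20) and Angptl7 (-0.14) with depth, and Pdgfra (-0.0385), Ly6a (-0.0394) and Osr1 (-0.0749) when KO replicates 2, 3 and 4 were left out. When 1 library was left out, Fap (-0.00569 to 0.15), Dpp4 (-0.45 to 0.13), Pcolce2 (-0.13 to 0.28), Angptl7 (-0.23 to 0.52) and Prrx1 (-0.11 to 0.0641) turned too. The causes were not tested. The median SE of the 10 genes was 0.136, 0.229 with depth and 0.174 when KO replicates 2 and 3 were left out.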
